A study of Citrus reticulata with 36 samples.

Results

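The nucellus of the ponkan mandarin (Citrus reticulata) was compared between 32 and 18 days after pollination (DAP), the ends of the sampled period. Cells were cut from ovule sections by laser capture microdissection, which isolates chosen cells under the microscope, and their RNA was amplified and sequenced. The comparison used 12 of the 36 libraries of the series: 3 libraries at each of the 2 stages from Huagan No.4 ponkan, labelled MT, and 3 at each stage from Egan No.1 ponkan, labelled WT. The letters MT are not spelled out in the labels and serve here only as a name, and no treatment is given for any group. The other libraries hold the nucellus at 28 DAP and the integument, the outer layers of the ovule, at the same 3 stages. The change from 18 to 32 DAP, called the span below, was taken within each cultivar and as the mean of both, and features were followed where both cultivars changed in 1 direction.

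The nucellus is the maternal tissue that encloses the embryo sac. After fertilisation it feeds the growing seed and is used up as the endosperm and embryo expand, and in many citrus it is also the tissue from which asexual, maternal embryos arise. The integuments around it later become the seed coat. The features counted here are known only by an identifier, with no gene names in the files, so no pathway could be followed and the captured tissue could not be set against marker genes. At most 2 features that rose and 2 that fell are named in a comparison, and the rest are described as groups.

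The 12 libraries held between 12976584 and 19916693 counts each. On these totals 3 counts, the most that a count of 0 allows, lie between 0.151 and 0.231 CPM (counts relative to the library's total), for counting error only. In MT the number of features above 0, after thinning each library to 12687779 counts, was 58875 to 61510 at 18 DAP and 64923 to 66833 at 32 DAP, with no overlap (two-sided exact permutation test, p = 0.1, the smallest that 3 against 3 allows). In WT it was 61940 to 65593 and 62857 to 66330, which overlapped (exact p = 1). Over all tested features, stage accounted for 12.1% of the variance among the 12 libraries, cultivar for 14.6%, and the 4 groups together for 36.8%. These shares are not adjusted for the number of groups, and groups drawn at random would also take a share. The part of the span in MT that moved with the number of detected features was not tested. The labels name 2 sequencing instruments but not which library ran on which, so the instrument and the stage cannot be told apart.

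From 18 to 32 DAP, 53 features of 57344 tested changed in the nucellus, and each had the same direction in MT and WT (0.0924% of all tested were called). A call on the mean of both largely sets this. Of the 4945 features with an unadjusted edgeR p under 0.05 for the mean, 94.8% had 1 direction. Of the 53, 51 met that p within each cultivar (0.626% of all tested). Among the 53, 26 rose (0.0453% of all tested) and 27 fell (0.0471%; edgeR quasi-likelihood test, Benjamini-Hochberg adjusted p under 0.05). The features that rose had a median log2 fold change of 1.41, with the middle ones packed between 1.33 and 1.67. The features that fell were spread more widely, with a median of -1.79 and quartiles at -2.29 and -1.32. A log2 fold change beyond 2 in size was reached by 6 of the features that rose and 12 of those that fell. The median over all tested features was 0.01. In captured tissue, fewer cells of a type and less RNA per cell cannot be told apart.

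The count of 53 moved with the tool and with single libraries. DESeq2 called 316 features (166 up, 150 down), voom 580 (187 up, 393 down) and limma 105 (34 up, 71 down) on log2 FPKM with a pseudocount of 1. With edgeR the count was 104 (27 up, 77 down) when fitted to the groups compared alone, 25 (6 up, 19 down) when fitted to the nucellus alone and 22 (9 up, 13 down) with the replicate number as a block. Each of the 53 features kept its sign in each of 39 other settings. These settings refit the same data, 30 of them without 1 library, so the sign of a called feature could hardly change. Of the 53 features, 8 were called in all 39 settings, 2 that rose and 6 that fell. Without WT replicate 3 of 32 DAP the count was 11, without MT replicate 3 of 18 DAP 16, and without WT replicate 1 of 28 DAP, which took no part in the contrast but in the estimate of spread, 134. It was 35 without MT replicate 2 of 18 DAP, 22 without MT replicate 2 of 32 DAP, 21 and 23 without WT replicates 1 and 2 of 18 DAP, and 21 without WT replicate 2 of 32 DAP. WT replicate 3 of 18 DAP, in which 45.6% of counts fell on 100 features against 16% to 32.7% in the other 11, left 38 when omitted. Every library of 32 DAP lay above every library of 18 DAP for 17 of the features that rose (0.241% of all tested), and below for 21 of those that fell (0.382%), which the choice of features largely sets.

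**Figure D1:**
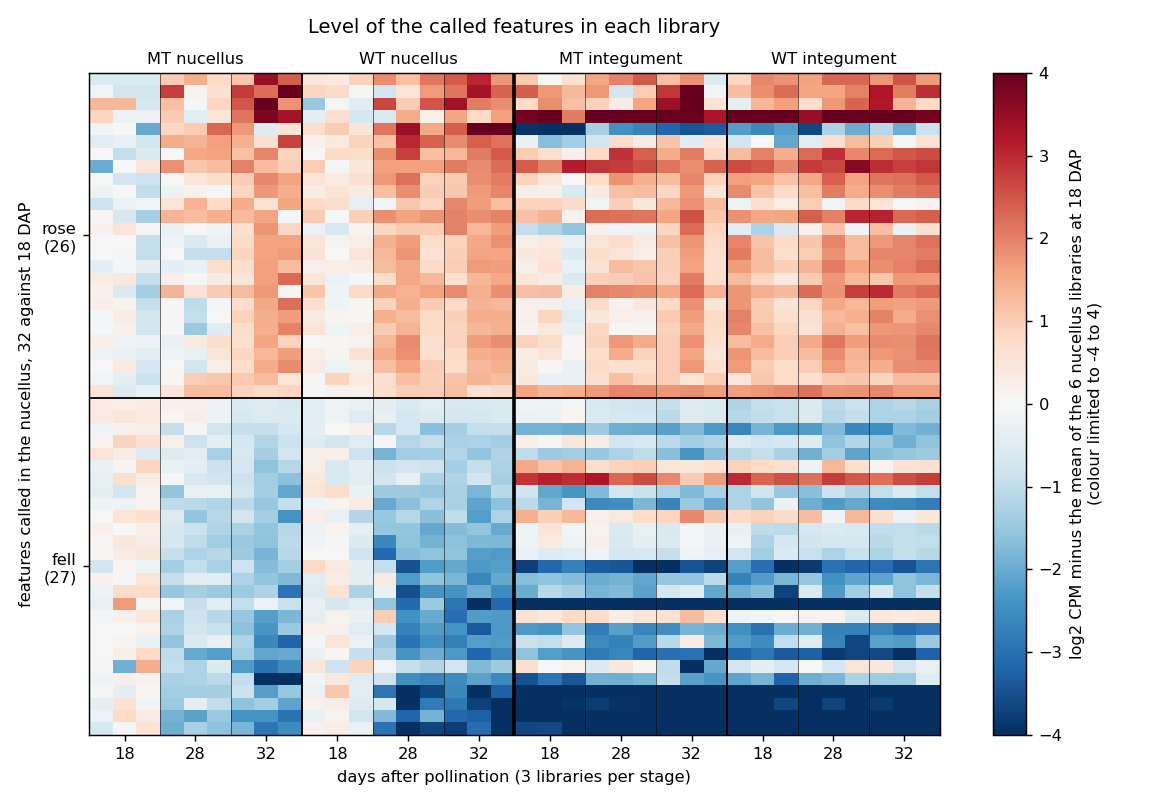
Each row is 1 of the 53 features called between 32 and 18 DAP in the nucellus (26 that rose above the line, 27 that fell below it), and each column 1 of the 36 libraries. Colour is log2 CPM minus the feature's mean over the 6 nucellus libraries at 18 DAP, limited to the range from -4 to 4. The rows were chosen on the nucellus columns of 18 and 32 DAP.

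Of the 2 named features that rose, c57723_g1 was called in each of the 39 other settings. At 18 DAP it stood at 16.5, 9.69 and 9 CPM in MT and at 24, 20.4 and 25.9 CPM in WT. At 32 DAP the values were 32, 61.2 and 50.3 CPM in MT and 33.7, 59.3 and 67.4 CPM in WT. Every library of 32 DAP lay above every library of 18 DAP, and replicate 1 was the lowest at 32 DAP in both cultivars. The mean was 17.6 ± 7.14 CPM at 18 DAP and 50.6 ± 14.8 CPM at 32 DAP (SD over 6 libraries). In the fit its log2 span was 1.61 with a standard error of 0.25, given after ± for such values below (adjusted p = 0.00476 by edgeR).

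The other, c125051_g1, was the more abundant. Its values at 18 DAP were 27.5, 13.9 and 18.7 CPM in MT and 27.3, 46.3 and 45.6 CPM in WT. At 32 DAP they were 61.1, 105 and 50.3 CPM in MT and 69.4, 116 and 150 CPM in WT. The groups did not overlap, but the highest library of 18 DAP, in WT, came close to the lowest of 32 DAP, in MT. Its log2 span was 1.67 ± 0.33 (adjusted p = 0.0331 by edgeR), and the call was lost in 11 of the 39 other settings, with log2 fold changes from 1.48 to 1.82 over those that left out 1 library. The libraries without which it was lost were MT replicates 2 and 3 and each WT replicate of 18 DAP, and MT replicate 2 and WT replicates 2 and 3 of 32 DAP.

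Among the features that fell, c106043_g1 was close to 0 in the integument, where its highest library held 0.295 CPM. At 18 DAP it stood at 10.8, 8.68 and 12.3 CPM in MT and 9.78, 24.6 and 8.42 CPM in WT. At 32 DAP it stood at 6.26, 2.41 and 3.99 CPM in MT and 1.82, 0.544 and 1.09 CPM in WT. All libraries of 32 DAP were below all of 18 DAP, and within 32 DAP the 3 WT libraries were below the 3 MT libraries. Its log2 span was -2.47 ± 0.44 (adjusted p = 0.0169 by edgeR), made up of -1.33 ± 0.59 in MT and -3.62 ± 0.65 in WT. The difference between the cultivars in this fall did not pass the test (edgeR, adjusted p = 0.714, unadjusted 0.0119). The call was lost without MT replicate 3 or WT replicate 2 of 18 DAP, and without replicate 2 or 3 of either cultivar at 32 DAP, with log2 fold changes from -2.72 to -2.15 over all settings that left out 1 library.

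The feature c51117_g1 had nearly the same log2 fold change in both cultivars, -2.38 ± 0.60 in MT and -2.43 ± 0.60 in WT and a mean of -2.41 ± 0.43 (edgeR, adjusted p = 0.015). At 18 DAP it stood at 18.3, 23.8 and 23 CPM in MT and 19.3, 27.9 and 15.3 CPM in WT. At 32 DAP WT was even, at 3.47, 4.65 and 3.48 CPM, while MT held 10.4 CPM in replicate 1 and 0.998 and 0.915 CPM in replicates 2 and 3. MT replicate 1 was thus nearer to the libraries of 18 DAP than the others were, and without it the mean log2 fold change was -3.46, the largest over the settings that left out 1 library. The call was lost without WT replicate 3 of 32 DAP, and in the fits to the groups compared alone and to the nucellus alone.

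**Figure D2:**
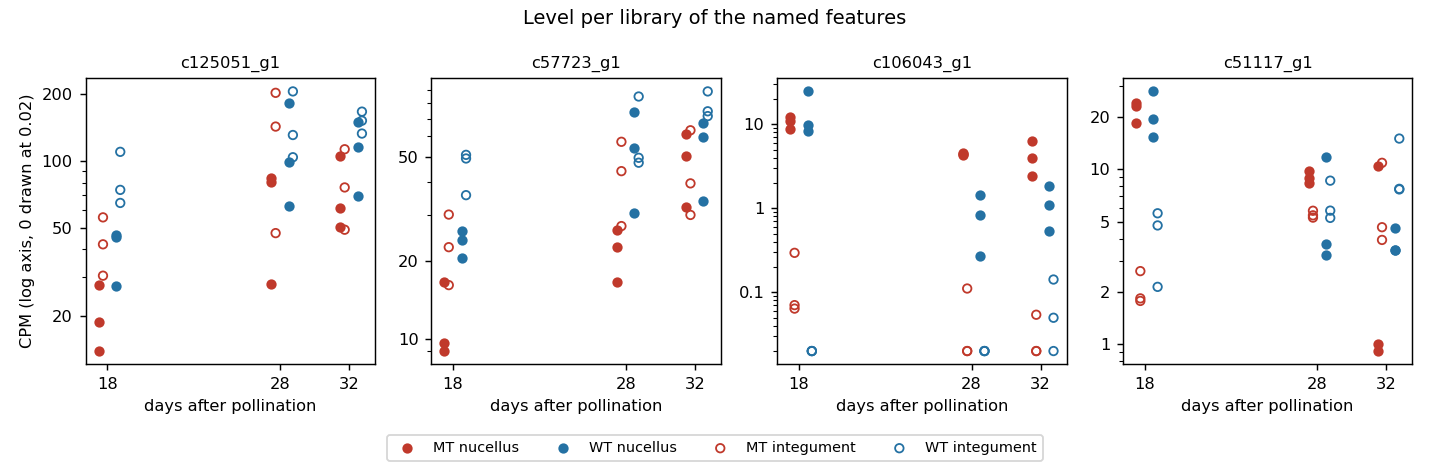
CPM (log axis) of the 4 named features in each of the 36 libraries by days after pollination, filled for nucellus and open for integument, red for MT and blue for WT. Values of 0 are drawn at 0.02. In the nucellus the 18 and 32 DAP libraries of each feature do not overlap, and for c51117_g1 the stages go opposite ways in the 2 tissues, with 4 of the 6 integument libraries of 32 DAP above all of 18 DAP.

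The 28 DAP libraries were not in the contrast that chose the 53 features, only in its estimate of spread, and showed how far each cultivar had moved by then. The mean level of the features that rose, in log2 CPM relative to the 6 nucellus libraries at 18 DAP, was 0.49, 0.25 and 0.63 in the MT libraries at 28 DAP and 1.18, 1.63 and 1.18 in the WT libraries. Every WT library lay above every MT library at that stage. At 32 DAP the levels were 1.18, 1.69 and 1.57 in MT and 1.47, 1.79 and 1.81 in WT, and the cultivars overlapped. At 18 DAP they were -0.04, -0.12 and -0.68 in MT and 0.33, 0.21 and 0.30 in WT, so that WT was already above MT. By 28 DAP the median feature that rose had covered 0.87 of its log2 span in WT and 0.28 of it in MT. On the mean level of the set the part was 0.74 in WT and 0.42 in MT, and this difference was not tested. Each part is measured between the libraries of 18 and 32 DAP, which were used to choose features with a large span, so it depends on that choice.

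Feature by feature, MT was below WT at 28 DAP for 23 of the 26 that rose, against 51.6% of all tested features. For 13 of them the unadjusted p was under 0.05 with MT lower, against 7.51% of all tested features, and for 14 every WT library exceeded every MT library, against 5.58%. At 18 DAP MT was also below WT for 23 of the 26 (51.9% of all tested). For 10 of these every WT library exceeded every MT library (7.36%). At 32 DAP the 2 counts were 15 (46.8%) and 2 (8.8%). The median MT minus WT difference was -0.67 at 18 DAP, -1.05 at 28 DAP and -0.14 at 32 DAP on the log2 scale. The libraries of 18 and 32 DAP chose the features, so all tested features are no free background for the counts at those stages. The features also varied together between libraries, as given below, so at no stage are they separate observations of a cultivar difference. No single feature was called between the cultivars at 28 DAP by edgeR, which gave 7085 features, 12.4% of all tested, an unadjusted p under 0.05. By DESeq2 544 were called, by voom 207, and by limma 24 and 13 on log2 FPKM with pseudocounts of 1 and 0.1. At 18 DAP edgeR called 1 feature between the cultivars (0.00174% of all tested) and at 32 DAP 31 (0.0541%), 29 higher and 2 lower in MT; other settings were not run for these stages. Of the 53 features 1 was among the 31: c68615_g1, which rose in the span and stood lower in MT at 32 DAP by a log2 difference of -3.17 ± 0.63 (adjusted p = 0.0471 by edgeR), and which is named here after its values were seen. The comparisons between cultivars within a stage were added after the data had been seen. Without WT replicate 2 of 28 DAP edgeR called 497 features, without WT replicate 3 246, and without MT replicate 1 26.

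The features that fell stood at -0.92, -0.87 and -0.96 in the MT libraries of 28 DAP and at -1.17, -2.13 and -1.82 in those of WT, on the same scale. The cultivars did not overlap. WT replicate 1, in which 51.7% of counts fell on 100 features, the highest share of the 36 libraries, was the nearest to MT. MT was above WT at 28 DAP for 25 of the 27 features (48.1% of all tested), 12 of them with an unadjusted p under 0.05 (4.85% of all tested) and 9 with every MT library above every WT library (6.74%). At 18 DAP their levels were -0.09, 0.20 and 0.33 in MT and -0.06, 0.05 and -0.42 in WT. The part of the log2 span covered by 28 DAP had a median over features of 0.66 in MT (quartiles 0.50 and 0.83) and 0.63 in WT (0.54 and 1.00). Taken on the mean level of the set it was 0.63 in MT and 0.81 in WT, or 0.95 in WT without replicate 1 of 28 DAP and 0.70 without replicate 2. The difference between the cultivars in this part was not tested. Here too the part is measured between the libraries that chose the features. Every MT library was above every WT library for 6 of the 27 at 18 DAP (7.5% of all tested) and 13 at 32 DAP (9.67%). The median MT minus WT difference was 0.35 at 18 DAP, 0.56 at 28 DAP and 0.47 at 32 DAP. Here too the libraries of 18 and 32 DAP chose the features, and the features varied together between nucellus libraries, so these counts only describe the set. At 32 DAP the levels were -1.18, -1.74 and -1.72 in MT and -1.91, -2.18 and -2.14 in WT and did not overlap.

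**Figure D3:**
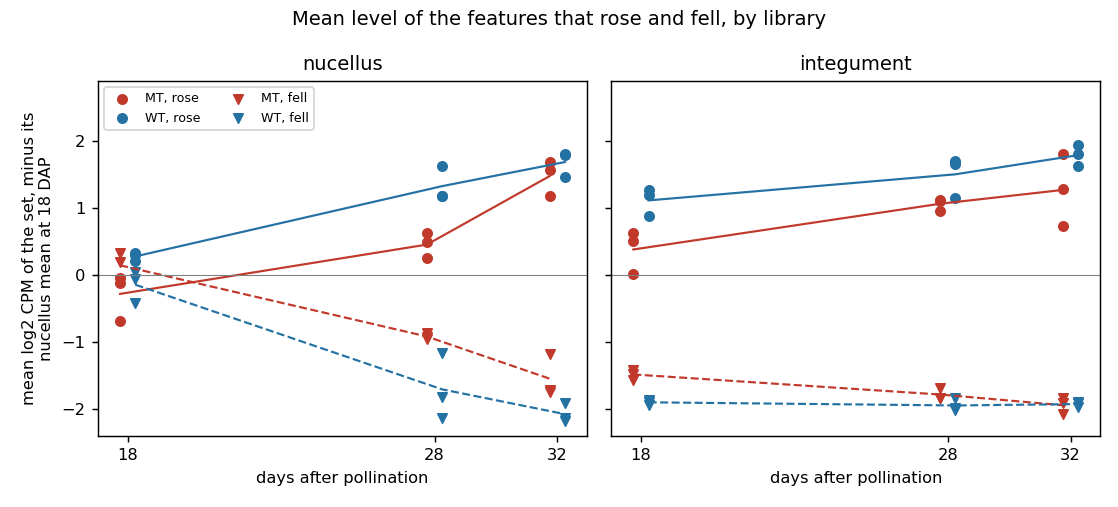
Mean log2 CPM of the 26 features that rose (circles) and the 27 that fell (triangles), minus the set's mean over the 6 nucellus libraries at 18 DAP, by days after pollination in the nucellus and the integument. Each point is 1 library, and lines join the means of 3 libraries of MT (red) and WT (blue). In the nucellus at 28 DAP the WT libraries lie above the MT libraries for the features that rose (1.18 to 1.63 against 0.25 to 0.63) and below them for those that fell.

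Within a single cultivar the number of calls depended on the tool. In WT 2 features fell and 0 rose (0.00349% of all tested called by edgeR), with 3311 (5.77%) under an unadjusted p of 0.05. DESeq2 gave 101 calls in WT, voom 1084, limma 37 and 15 on the 2 FPKM scales, and edgeR 156 when fitted to the groups compared alone. The feature c90109_g1 went from 59, 58 and 37.3 CPM to 9.78, 4.95 and 10.4 CPM, which is -2.62 ± 0.40 in log2 (adjusted p = 0.0132 by edgeR). The feature c56057_g1 went from 16.6, 21.4 and 15.1 CPM to 5.82, 6.38 and 4.77 CPM, which is -1.64 ± 0.26 (adjusted p = 0.0132 by edgeR). Both also fell in the mean of the cultivars in all 39 other settings, and in MT the log2 fold changes were -1.82 ± 0.39 and -1.48 ± 0.26. Within the edgeR fit the WT count was 0 without replicate 1 or 2 of 18 DAP and without replicate 1, 2 or 3 of 32 DAP. It was 12 without WT replicate 2 of 28 DAP, 18 without WT replicate 1 of 28 DAP and 5 without WT integument replicate 1 of 18 DAP. Among the 12 within-group pairs, WT replicates 2 and 3 of 32 DAP had the highest r of log2 CPM across features, 0.971. The feature named by the lowest p among those higher at 32 DAP in WT, c89689_g1, was not called (edgeR, adjusted p = 0.063). It stood at 4.52, 5.99 and 4.45 CPM at 18 DAP and at 20.3, 20.1 and 17.9 CPM at 32 DAP in WT, but at 5.25 to 10.9 CPM and 5.63 to 9.37 CPM in MT.

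In MT no feature was called by edgeR, with 4939 (8.61% of all tested) under an unadjusted p of 0.05, while DESeq2 gave 143 calls, voom 14, and limma 38 and 6 on the 2 FPKM scales. Both features named by the lowest p here were among the 53. The feature c28106_g1 stood at 30.9, 40.2 and 36.7 CPM at 18 DAP and 10.5, 9.74 and 14.4 CPM at 32 DAP in MT, a log2 span of -1.64 ± 0.27 (adjusted p = 0.0661 by edgeR), and c57723_g1 had 2.02 ± 0.36 (adjusted p = 0.0661 by edgeR). In WT c28106_g1 stood at 26.9, 28.2 and 20.3 CPM and then at 9.43, 8.56 and 8.54 CPM, so that in each cultivar the stages were fully apart. The MT count was 16 without WT replicate 1 of 28 DAP, and 5 and 1 without MT replicates 1 of 32 DAP and 3 of 18 DAP. It was 3 without WT replicate 3 of 28 DAP. In the integument, it was 2 without MT replicate 2 or WT replicate 1 of 18 DAP, 1 without WT replicate 2 of 18 DAP, and 3 and 7 without MT replicates 1 and 3 of 32 DAP.

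The direction of change was also compared over the whole table, since MT and WT share no library. Of all tested features, 52.3% had the same sign in both. Of the 4939 features with an unadjusted p under 0.05 in MT, 56.6% had the same sign in WT, and of the 3311 with one in WT, 62.1% had the same sign in MT. A total of 359 features (0.626% of all tested) met that p in both cultivars in 1 direction. They made up 7.27% of the MT list and 10.8% of the WT list. Over all tested features, 5.77% met that p in WT and 8.61% in MT, in either direction. At an unadjusted p under 0.001 the shares with the same sign were 66.7% of 210 features and 76.7% of 133. The fold changes of each cultivar rest on its own libraries. The p came from 1 fit with an estimate of spread shared by all 36 libraries. The libraries of each cultivar therefore also bore on the list of the other, and these shares are not an independent check.

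**Figure D4:**
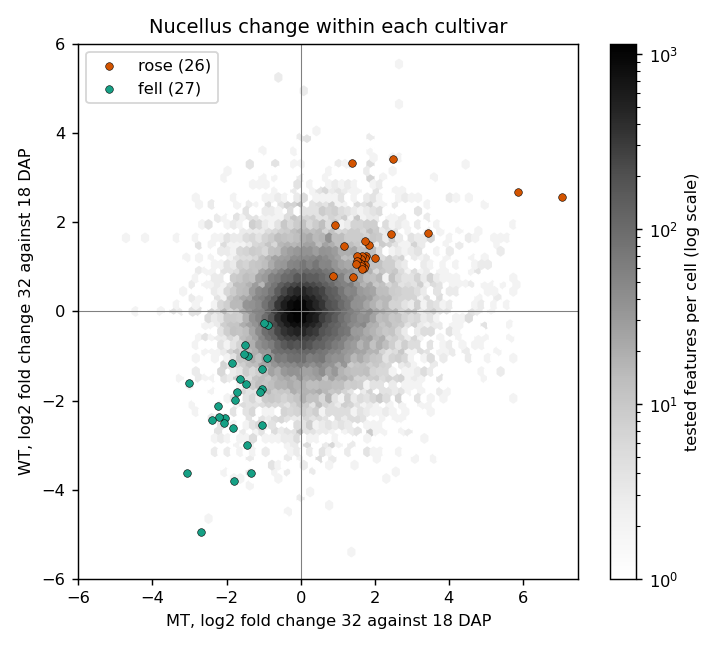
Log2 fold change from 18 to 32 DAP in the nucellus of MT (x axis) and WT (y axis). Grey cells count all tested features within 6 on both axes (log colour scale), and points are the 26 features that rose and the 27 that fell, which were chosen on the mean of these values. Most points that rose sit in a tight group, and the grey cells show little slope, with 52.3% of all tested features of 1 sign in both cultivars.

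No feature was called for a difference between the span in MT and the span in WT by edgeR, with 3543 (6.18% of all tested) under an unadjusted p of 0.05. DESeq2 gave 4 calls, and neither voom nor limma gave any (0 on each scale). Without MT replicate 1 of 32 DAP the count was 1. Of the features named by the lowest p in each direction, c41814_g1 stood at 10.1, 7.94 and 6.38 CPM and then 16.6, 22.3 and 10.5 CPM in MT, and at 19.3, 12.6 and 14.3 CPM and then 9.47, 6.63 and 8.79 CPM in WT. The mean was higher at 32 DAP in MT and lower in WT, but the difference of 1.91 ± 0.39 on the log2 scale did not pass the test (edgeR, adjusted p = 0.714). The feature c104389_g1 had a difference of -1.49 ± 0.35 (edgeR, adjusted p = 0.714). In MT it lay between 13.4 and 15.3 CPM at 18 DAP and between 9.68 and 11.1 CPM at 32 DAP. In WT it lay between 7.41 and 8.78 CPM and then between 12.1 and 19.7 CPM.

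The integument libraries, which were not in that contrast either, gave a different picture for the features that rose and those that fell. All 26 features that rose had an integument span above 0, against 50.8% of all tested features, with a median log2 fold change of 0.83. For 19 of them the unadjusted p was under 0.05 (4.45% of all tested in that direction), and 1 was called after adjustment (0.0279% of all tested features were called in either direction). Their mean level in the integument ran from 0.01 to 0.63 in MT and 0.89 to 1.27 in WT at 18 DAP, and from 0.73 to 1.81 in MT and 1.63 to 1.94 in WT at 32 DAP, on the same relative log2 scale. At 18 DAP each integument library lay above the nucellus library of the same cultivar and number. The choice of features favours this, since they had to be lower in those nucellus libraries than at 32 DAP. At 32 DAP the nucellus ran from 1.18 to 1.69 in MT and 1.47 to 1.81 in WT, and the tissues overlapped. Of the features that fell, 17 of 27 had an integument span below 0 (49.1% of all tested), 8 with an unadjusted p under 0.05 (5.03% in that direction), and the median was -0.34. Nucellus and integument libraries of the same replicate number deviated together from the means of their groups (median r across features 0.28 over 18 pairs), so the integument is not independent of the nucellus.

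Whether the span itself differed between the tissues passed the test for 1 feature, c51117_g1 (0.00174% of all tested). In the integument it stood at 1.77, 2.62 and 1.83 CPM in MT and 4.78, 5.61 and 2.13 CPM in WT at 18 DAP. At 32 DAP it stood at 10.9, 4.67 and 3.95 CPM and at 7.68, 7.74 and 15 CPM. Of the 6 integument libraries of 32 DAP, 4 lay above the highest of 18 DAP, and MT replicates 2 and 3 did not. The span in the nucellus minus that in the integument was -3.87 ± 0.60 on the log2 scale (edgeR, adjusted p = 0.0234). The integument span on its own was 1.46 ± 0.42 and was not called (edgeR, adjusted p = 0.205), and the call of the difference was lost in 10 other settings. Among them was the fit with the replicate number as a block, where the difference was -4.07 (adjusted p = 0.157 by edgeR). That block was set within each cultivar and tissue, so it did not pair nucellus with integument libraries. No fit paired them, although 17 of the 18 same-numbered pairs of nucellus and integument libraries had an r over 0.1. The other 9 settings that lost the call left out 1 library. In the nucellus these were replicate 2 of 18 DAP in MT and in WT, and WT replicates 1 and 3 of 32 DAP. In the integument they were replicates 1 and 3 of 18 DAP in both cultivars and MT replicate 1 of 32 DAP. Without MT replicate 1 of 32 DAP in the nucellus the difference was -4.94. In the opposite direction the feature named by its p, c99538_g1, was not called (difference 1.54 ± 0.36; edgeR, adjusted p = 0.336). It ran from 12.2 to 24.8 CPM at 18 DAP and 18.9 to 24.6 CPM at 32 DAP in the nucellus, and from 19.1 to 71.2 CPM and then 12.8 to 23.5 CPM in the integument, where its span of -1.36 ± 0.25 was called (adjusted p = 0.0333 by edgeR).

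At 28 DAP, in libraries outside the contrast, 13 of the 27 features that fell were called higher in the nucellus than in the integument, against 7.18% of all tested features and 11.2% of those in abundance quartiles 3 and 4, and 6 were called higher in the integument (10.2% of all tested). Of those 13, 5 had a log2 difference above 2, a class that held 1.86% of all tested features. To be called as falling, a feature had to be counted in the nucellus at the earlier stage. All tested features include some without counts in the nucellus libraries of the contrast, so they are not a like-for-like background. The part of this choice of features in the excess was not tested. Of the features that rose, 2 were called in favour of the nucellus and 7 in favour of the integument, and 21 of the 26 had a level below that of the integument (48.8% of all tested). The shares called depend on how abundant a feature is, and both sets were more abundant than most. Of the features that fell, 24 of the 27 were in abundance quartiles 3 and 4. Quartile 4 alone held 15 of the 26 that rose and 10 of the 27 that fell, against 25% of all tested.

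The features that rose were shorter than most. The length implied by a feature's count and its FPKM had a median of 688 bases among them, 1732 bases among those that fell and 1975 bases over the 54103 tested features with a value. In the shortest quartile of all tested features, up to 1431 bases, were 18 of the 26 that rose and 7 of the 27 that fell. Within the most abundant quartile of all tested features, short ones were more often higher at 32 DAP in MT: 6.33% of the shortest quartile had an unadjusted p under 0.05 in that direction, and 0.792% of the longest quartile. In WT the shares were 4.24% and 3.36%. The median log2 fold change of all abundant features in the shortest quartile was 0.09 in MT and -0.04 in WT. In the longest quartile it was -0.16 in MT and -0.01 in WT. The features that rose had a median of 1.65 in MT and of 1.21 in WT. The part of length in the result was not tested in either cultivar.

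**Figure D5:**
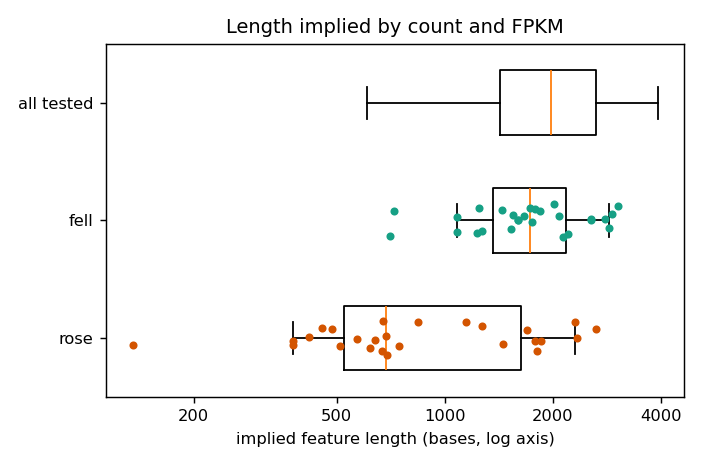
Length in bases (log axis) implied by count and FPKM for the 26 features that rose, the 27 that fell and all tested features. Boxes give the quartiles and median, whiskers the 5th and 95th percentiles, and points single features. The features that rose centre on 688 bases and all tested features on 1975.

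The features that rose also varied together between libraries of 1 group. The mean correlation over all pairs of them, of deviations from the group means, was 0.19 over the 18 nucellus libraries and 0.31 over the 18 integument libraries, against 0.01 and 0 over all pairs of tested features. For the features that fell it was 0.18 in the nucellus and 0 in the integument. Libraries of 18 and 32 DAP in the nucellus took part in choosing the features, and features of 1 library share its depth and scaling, so these values only describe the libraries. As a share of all counts the features that rose went from 0.0375 ± 0.00982% at 18 DAP to 0.0995 ± 0.0226% at 32 DAP in the nucellus (SD, n = 6 each), and those that fell from 0.238 ± 0.0942% to 0.104 ± 0.0215%.

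Of the 26 features that rose, 2 had 3 counts or fewer over the 3 MT libraries of 18 DAP, and their fitted log2 fold changes of 4.27 and 4.81 depend on how the model treats values near 0. Without them the changes ran from 0.83 to 2.95 with a median of 1.39. None of the features that fell had such a group.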

How the data were processed

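RNA-seq of laser-captured nucellus and integument was deposited as tables of counts and of FPKM over 128861 features. Per the submitters' processing notes the authors used cutadapt, Bowtie2, RSEM and DESeq; their versions and the reference sequence are not given in the sources used here. Deposited counts are whole numbers and were used as they stood; if they are rounded RSEM estimates, similar sequences share reads. The deposited FPKM values scale fragments to feature length and library total. A small amount of RNA was amplified from random primers with a linear amplification kit, per the labels' protocols. Column names give stages as digits, and 1, 2 and 3 were taken to mean 18, 28 and 32 DAP, following the design text; every DAP given here rests on this reading.

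The filterByExpr rule over the 12 groups kept 57344 features (holding at least 99.72% of each library's counts). Libraries were scaled by TMM, and edgeR 4.0.16 in R 4.3.3 fitted 1 robust quasi-likelihood model with 12 group means over all 36. Standard errors come from the F statistic. CPM are TMM-scaled, and log2 CPM has a prior count of 2. Implied length is the count per FPKM and library total, where a count reached 20. Only the test of the mean nucellus span was run on simulated counts. These were drawn independently for each feature, without the deviations that features of 1 library share, so they do not check the test under such deviations. The CPM limit for a feature without counts covers counting error only, while standard errors and SDs include the spread between libraries. No per-sample column was left out. Alternatives used DESeq2 1.42.0 and limma 3.58.1, the latter as voom on counts and on log2 FPKM.

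The features and classes described were chosen with earlier results of these data known. Features were named where they were called (adjusted p under 0.05), at or above the median abundance, and, for the span, had no overlap between stages and 1 sign in both cultivars; then the 2 largest changes in each direction, or, where none was called, that of lowest p. The labels' design text calls the 3 libraries of a group biological replicates. Same-numbered nucellus libraries of 18 and 32 DAP did not deviate together (r from -0.25 to 0.12, 6 pairs).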

Additional observations from a re-analysis of the deposited data

Results flagged for a closer look

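The change from 18 to 32 DAP differed between nucellus and integument for c51117_g1, by -3.87 ± 0.60 on the log2 scale (edgeR, adjusted p = 0.0234) in the fit to all 36 libraries. Other tools called between 15 and 30 features for this difference between tissues. The 6 nucellus libraries of 32 DAP lay below the 6 of 18 DAP, and the call was lost in 10 other settings, among them the replicate block (-4.07, adjusted p = 0.157 by edgeR). That block was set within each tissue, and no fit paired same-numbered nucellus and integument libraries. Groups hold 3 libraries each, and single libraries within a group were therefore not tested for standing apart.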

How the results depend on the processing

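The 53 features kept their sign in all 39 other settings, which the choice of features on the same data largely sets. Of the 53, 8 were called in all 39. The counts of called features follow, with the cause not tested where they moved. For the nucellus span DESeq2 called 316 (166 up, 150 down), voom 580 (187, 393), limma 105 (34, 71) and 61 (26, 35) on log2 FPKM with pseudocounts of 1 and 0.1, the groups compared alone 104 (27, 77) and the nucellus alone 25 (6, 19), against 26 up and 27 down; leaving out 1 library gave 11 to 134. In MT the count of 0 became 4 without the filter, 143, 14, 38 and 6 by DESeq2, voom and the 2 FPKM scales, and 0 to 16 without 1 library. In WT the count of 2 became 5 without the filter, 101, 1084, 37 and 15 by those tools, 156 with the groups compared alone, 0 with the nucellus alone, and 0 to 18 without 1 library. The MT minus WT difference of the span had 4 by DESeq2 and 0 to 1 without 1 library. In the integument the 16 became 404, 1003, 169 and 88 by those tools, 0 with the groups compared or the integument alone, and 1 to 51 without 1 library. The difference between tissues had 7 without the filter, 29, 27, 30 and 15 by those tools, 9 with the groups compared alone, and 0 to 11 without 1 library; a fit of 1 tissue cannot give it. At 28 DAP the MT minus WT count of 0 became 544, 207, 24 and 13 by those tools and 0 to 497 without 1 library.

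Replicate numbers did not pair the nucellus libraries of 18 and 32 DAP: 3 of 12 correlated best with their own number, and the r of the 6 pairs had a median of -0.02. With the replicate number as a block the nucellus span had 22 calls, 9 up and 13 down, of which 20 were among the 53. The block gave 1 call in WT, 5 in the integument and 0 for the difference between tissues. The features that rose were above 0 in the integument for 24 to 26 of 26 without 1 library, and MT was below WT at 28 DAP for 20 to 24 of them over all settings. The features that fell were below 0 in the integument for 17 to 19 of 27, and MT was above WT at 28 DAP for 22 to 27.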
